A study of Mus musculus with 8 samples.

Results

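The 3 Aurora kinases (*Aurkb*, *Aurka* and *Aurkc*), the chromosomal passenger proteins that carry Aurora B (*Incenp*, *Birc5* and *Cdca8*), and *Cdk1* with its small binding subunits (*Cks1b* and *Cks2*) were examined in intact mouse embryos collected 8.5 days after mating (E8.5). Probes were selected by the RefSeq accession of the array annotation, with version numbers removed, which gave 17 probes of 9 genes among 55681 distinct probes. These genes were chosen with the difference between the father groups in these arrays already known, so that their difference by father is given as a description without a test. Expression was measured on 8 one-colour Agilent arrays, 1 for each embryo. All 8 embryos were heterozygous for the *Eed* l7Rn5-1989SB allele on a C57bl6/129 background, and all mothers were wild type. The allele is a hypomorph that lowers the function of EED, a core subunit of Polycomb Repressive Complex 2 (PRC2), the enzyme that methylates histone H3 at lysine 27. Homozygous sires (*Eed* hypo/hypo) had 4 of the embryos, termed the HOM father group, and heterozygous sires (*Eed* hypo/wt) had the other 4, termed the HET father group, with 2 females and 2 males in each group.

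By the study's account the sires of both genotypes were brothers, and there were fewer sires than embryos. The sire of each embryo was not analysed here, so that the spread between embryos is not a spread between independent fathers. In each father group 2 embryos also share the number at the start of their sample identifier, whose meaning the labels do not give. In the HOM father group these are the 2 males, and in the HET father group a female and a male. The 4 arrays of each father group lay on a slide of their own, and slide and father genotype cannot be told apart in any difference by father given below.

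Aurora kinases are serine/threonine kinases of cell division. Aurora A acts at centrosomes and spindle poles. Aurora B is the kinase of the chromosomal passenger complex, in which INCENP is the scaffold and survivin (*Birc5*) and borealin (*Cdca8*) place the complex on centromeres, where it corrects faulty microtubule attachments before acting at the midzone in cytokinesis. Aurora C is a close relative known mainly from meiotic germ cells, where it can take the place of Aurora B in the complex. CDK1 with a B-type or A-type cyclin drives entry into mitosis, and the CKS proteins help it bind phosphorylated substrates. Transcripts of most of these genes rise together in dividing cells as cells approach mitosis.

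In this set, *Aurkb* and 1 of the 3 *Cdk1* probes were higher in embryos of HOM fathers by more than 2-fold, at 3.45-fold and 2.56-fold. The partners of Aurora B in the passenger complex, *Aurka* and the *Cks* genes differed by little between the groups, with every probe of these genes between -0.12 and 0.08 on the log2 scale. The *Aurkc* probes lay between these extremes, at 1.36-fold and 1.40-fold. The 2 probes beyond 2-fold were dimmer than every probe of *Aurka*, the partners and the *Cks* genes, whose group means were 2.00 or more. With HOM and HET fathers they averaged -0.30 and -2.09 (*Aurkb*) and 0.83 and -0.52 (*Cdk1*), in normalised log2 signal. The brightest *Cdk1* probe, at 4.02 and 3.74, differed by 1.22-fold. The *Aurkc* probes and the other *Cdk1* probe had means of -3.49 to -1.52. Whether the 2 probes report the main transcripts of their genes was not tested. All 17 probes passed the filter on low signals and were well above background on all 8 arrays. By the limits of the study's methods, an adjusted p below 0.01 and at least 2-fold, 2 of the 17 probes were called higher (*Aurkb* and 1 *Cdk1* probe), beside 1.24% of all 29717 tested probes. At an adjusted p below 0.05 without a fold limit, 3 probes were higher and 0 lower, beside 12.3% higher and 8.69% lower over all tested probes. With arrays scaled to their median the split was 2 higher and 5 lower, and with normexp background correction 3 higher and 2 lower. Over all tested probes it was 2338 higher and 10352 lower with median scaling, and 3509 higher and 3407 lower with normexp. Nothing is read from these counts, since the genes were chosen on this contrast. The median difference of the 17 probes was 0.02 on the log2 scale, compared with -0.02 over all tested probes, and 11 of the 17 lay within 0.2 of zero.

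**Figure D1:**
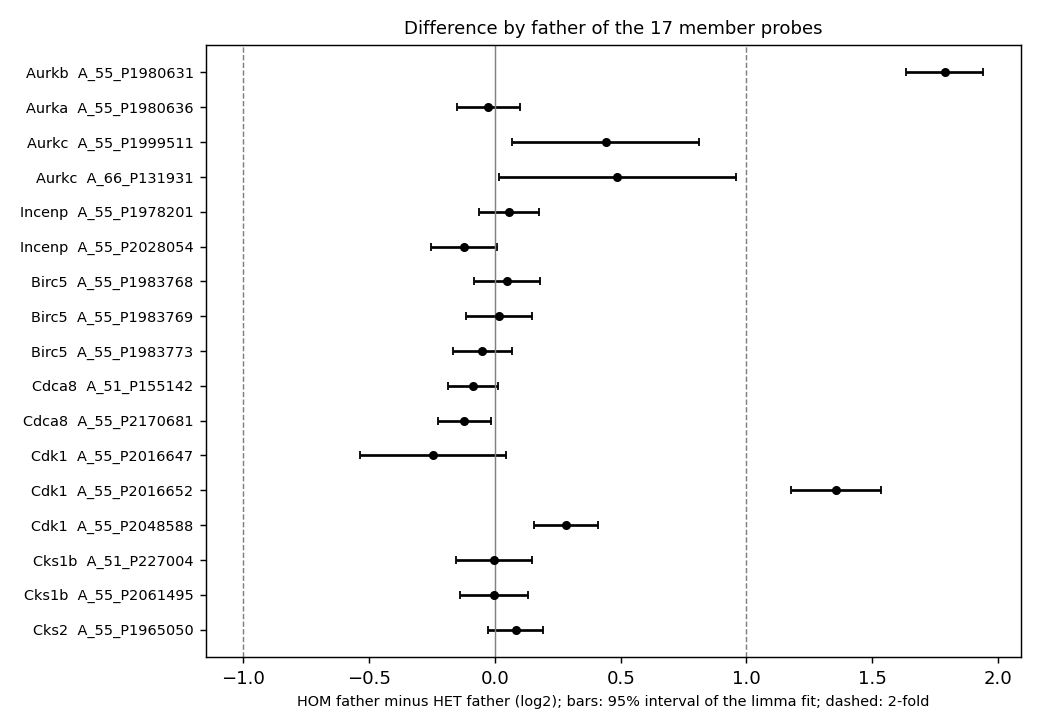
Difference in normalised signal (log2, HOM father minus HET father, n = 4 embryos each) of the 17 probes of the 9 genes. Points are the estimates, bars their 95% intervals from the limma fit, and dashed lines mark 2-fold. *Aurkb* at 1.79 and 1 *Cdk1* probe at 1.36 lie beyond 2-fold, and the other 15 probes lie between -0.25 and 0.49.

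*Aurkb* was measured by 1 probe (A_55_P1980631, designed to NM_011496). Its normalised signal, on a log2 scale on which 0 is the 75th percentile of the array, was -0.42, -0.16, -0.25 and -0.37 in embryos of HOM fathers (replicates 1 to 4). In embryos of HET fathers it was -2.05, -2.06, -2.11 and -2.13. Every embryo of a HOM father was therefore above every embryo of a HET father, with a gap of 1.63 between the closest embryos of the groups. The means were -0.30 ± 0.12 and -2.09 ± 0.04 (SD, n = 4 each), and the difference was 1.79 ± 0.07 (SE). It was larger than that of 99.6% of all tested probes. The difference was 1.79 in females and 1.79 in males. It ranged from 1.51 with another background correction (normexp) to 1.83 over 19 alternative ways of processing the arrays. The RefSeq gene table also lists a pseudogene of *Aurkb*, Gm5307, for which no probe was matched by accession. Whether the *Aurkb* probe also pairs with transcripts of this copy was not tested.

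*Aurka*, the kinase of the spindle poles, was measured by 1 probe (A_55_P1980636). Its normalised signal was 5.04, 5.11, 4.97 and 4.93 in embryos of HOM fathers and 5.02, 5.01, 5.08 and 5.04 in embryos of HET fathers. The groups overlapped. The difference was -0.03 ± 0.05 (SE) on the log2 scale, with a 95% interval from -0.15 to 0.10, and its sign turned with quantile normalisation.

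*Cdk1*, the kinase of mitotic entry, had 3 probes, all designed to the same accession (NM_007659), and these probes differed from each other. A_55_P2016652 gave 0.66, 0.92, 0.86 and 0.89 in embryos of HOM fathers and -0.42, -0.65, -0.53 and -0.48 in embryos of HET fathers. The groups did not overlap, with a gap of 1.08, and the difference was 1.36 ± 0.08 (SE, log2). As for *Aurkb*, the lowest embryo of the HOM father group was replicate 1. The second probe, A_55_P2048588, gave 4.00, 4.06, 3.98 and 4.06 compared with 3.77, 3.63, 3.74 and 3.83. Again the groups did not overlap, but the gap was 0.15 and the difference was 0.28 ± 0.05 (SE), or 1.22-fold. This difference was 0.09 when arrays were scaled to their median. Relative to the median of all tested probes it was 0.31 under both the main and the median scaling. The third probe, A_55_P2016647, gave -3.29, -3.78, -3.57 and -3.32 compared with -3.09, -3.43, -3.20 and -3.26. Here the groups overlapped and the difference was -0.25 ± 0.13 (SE), with a 95% interval from -0.54 to 0.04. The differences of the 3 probes of this 1 gene therefore spanned 1.60 on the log2 scale, which is wider than for any other gene of the set, where probes of 1 gene lay within 0.18 of each other. The sequences of the probes were not used here, and which part of the transcript each one detects was not tested.

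**Figure D2:**
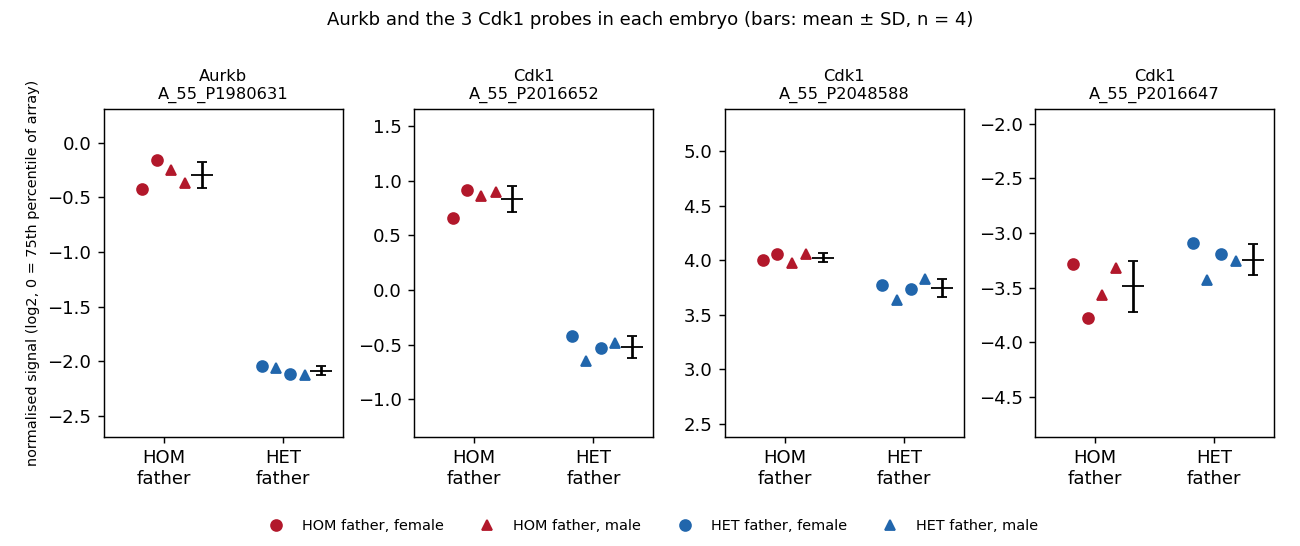
Normalised signal (log2, 0 is the 75th percentile of the array) of *Aurkb* and of the 3 *Cdk1* probes in each embryo, with circles for females, triangles for males, and bars for the mean ± SD (n = 4 per father group). The panels share 1 span of the axis. Groups are apart by 1.63 for *Aurkb*, by 1.08 and 0.15 for 2 *Cdk1* probes, and overlap for the *Cdk1* probe on the right.

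The stretch before the transcription start of late cell cycle genes often carries CCAAT boxes, which the factor NF-Y binds, and a TTTGAA element (the cell cycle genes homology region), which the MuvB complexes bind. Of the 9 genes, 7 had an entry in the RefSeq promoter table (GRCm38.p6), and *Aurkb* and *Incenp* had none. The entries were searched for CCAAT, for TTTGAA and for the variant TTCGAA on both strands over the 250 bases upstream of the start. CCAAT was found in 5 of the 7, compared with 33.8% of 32851 promoters, and TTTGAA in 2 of the 7 (*Cdk1* and *Cks1b*), compared with 16.0%. TTCGAA was found in 0 of the 7 and in 1.34% of all promoters. CCAAT together with either other motif was found in 2 of the 7 and in 6.02% of all. The last 120 bases before the start are shown for *Cdk1*, whose probes differed by father to unequal extents, for *Aurka* and *Cdca8*, whose levels were close between the groups, and for *Aurkc*, in which none of the motifs was found. Each is written 5′ to 3′ on the strand of the gene. Capitals mark CCAAT and TTTGAA or their reverse complements ATTGG and TTCAAA.
Cdk1: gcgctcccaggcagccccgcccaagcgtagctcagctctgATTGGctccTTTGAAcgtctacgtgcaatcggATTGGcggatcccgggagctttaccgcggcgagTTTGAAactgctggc
Aurka: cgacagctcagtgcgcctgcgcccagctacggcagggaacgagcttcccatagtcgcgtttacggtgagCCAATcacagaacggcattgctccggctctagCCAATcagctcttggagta
Cdca8: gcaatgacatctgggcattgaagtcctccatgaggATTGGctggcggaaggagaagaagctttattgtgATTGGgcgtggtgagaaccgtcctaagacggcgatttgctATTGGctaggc
Aurkc: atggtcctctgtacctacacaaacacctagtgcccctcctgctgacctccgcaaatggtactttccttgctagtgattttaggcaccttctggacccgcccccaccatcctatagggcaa
These windows lie on GRCm38.p6 at chr10:69352913-69353032 (minus strand), chr2:172370571-172370690 (minus strand), chr4:124936918-124937037 (minus strand) and chr7:6995265-6995384 (plus strand). In *Cdk1*, the TTTGAA copies began 71 and 15 bases before the start and the CCAAT copies of this window 80 and 48 bases before it. In *Aurka* the CCAAT copies began 51 and 19 bases before the start. *Cdca8* held 3 copies, at 85, 51 and 11 bases. *Cks1b*, whose sequence is not shown, had TTTGAA copies 77 and 17 bases before the start. Its probes differed by -0.004 and -0.003 (log2) between the father groups. These are matches of letters and not measured binding sites.

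The other proteins of the passenger complex are the scaffold INCENP, borealin and survivin. For borealin (*Cdca8*), A_51_P155142 gave 5.33, 5.38, 5.33 and 5.37 in embryos of HOM fathers and 5.42, 5.42, 5.50 and 5.42 in embryos of HET fathers. The other *Cdca8* probe, A_55_P2170681, gave 1.99, 2.00, 2.03 and 1.98 compared with 2.13, 2.11, 2.19 and 2.06. For both probes every embryo of a HOM father was below every embryo of a HET father, opposite to *Aurkb*. The differences were small, at -0.09 ± 0.04 and -0.12 ± 0.05 (SE, log2). With quantile normalisation the first of these was -0.01, slightly above the median of all tested probes under that scaling. In all, 4 of the 17 probes had every embryo of a HOM father above every embryo of a HET father (*Aurkb*, 2 *Cdk1* probes and 1 *Aurkc* probe) and 2 had every one below, beside 14.1% and 13.0% of all tested probes.

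For the scaffold *Incenp*, A_55_P1978201 gave 5.20, 5.25, 5.19 and 5.20 in embryos of HOM fathers and 5.18, 5.05, 5.23 and 5.16 in embryos of HET fathers. A_55_P2028054 gave 5.34, 5.41, 5.38 and 5.46 compared with 5.49, 5.45, 5.64 and 5.49. The groups overlapped on both probes, whose differences had opposite signs (0.06 ± 0.05 and -0.12 ± 0.06, SE). Survivin (*Birc5*) had 3 probes, 1 designed to NM_009689 and 2 to NM_001012273, with differences of 0.05, 0.02 and -0.05 on the log2 scale. Their groups overlapped and their 95% intervals together ran from -0.17 to 0.18.

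The CKS subunits of CDK1 also stayed close between the groups. *Cks1b* differed by -0.004 and -0.003 on its 2 probes, with 95% intervals from -0.15 to 0.15 and from -0.14 to 0.13. *Cks2* differed by 0.08, with a 95% interval from -0.03 to 0.19, and its groups overlapped. *Cks1b* has a retrotransposed copy, *Cks1brt*, with 2 probes on the array. One of them (A_55_P2057142) gave 1.40 ± 0.05 compared with 1.48 ± 0.10 (SD, n = 4 each), a difference of -0.08 with a limma adjusted p of 0.405. The other did not rise clear of background on any of the arrays.

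*Aurkc*, the Aurora kinase known from germ cells, was detected in all 8 whole embryos by both of its probes. A_55_P1999511 gave -1.20, -1.56, -1.67 and -1.67 in embryos of HOM fathers and -1.71, -2.21, -1.73 and -2.19 in embryos of HET fathers. The groups did not overlap, but only by 0.05, and the difference was 0.44 ± 0.16 (SE, log2). A_66_P131931 gave -2.24, -2.88, -2.96 and -3.01 compared with -2.96, -3.44, -3.08 and -3.54. These groups overlapped, and the difference was 0.49 ± 0.20 (SE). Over 19 alternative ways of processing, the differences ran from 0.25 to 0.52 and from 0.30 to 0.58, with the lower end of each from scaling to the array median. Relative to the median of all tested probes the differences were 0.46 and 0.51 under both that scaling and the main one.

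The sexes were the comparison that had played no part in the choice of genes. Both males of the HOM father group share the number at the start of their sample identifier, and neither female of that group has it. Within that group, sex and this number cannot be told apart. On both *Aurkc* probes, both females were above both males within each father group, which held for no other probe of the set and for 3.56% of all tested probes. Females were at -1.55 ± 0.25 and males at -1.93 ± 0.31 (SD, n = 4 each) on A_55_P1999511. With father group in the model the difference, female minus male, was 0.38 ± 0.09 (SE, log2), with a limma p of 0.0035 before adjustment and 0.638 after Benjamini-Hochberg adjustment over all tested probes. On A_66_P131931 females were at -2.79 ± 0.38 and males at -3.24 ± 0.30, with a difference of 0.44 ± 0.13 and limma p-values of 0.0134 before and 0.892 after adjustment. Neither difference passed the correction for multiple tests. Both probes detect 1 gene in the same 8 embryos and are not independent of each other. The highest female of each father group on A_66_P131931 was replicate 1, and these arrays also had the largest shares of spots well above background, 60.8% and 58.5%. The part of this share in the difference was not tested. Without replicate 1 of the HOM father group the differences were 0.33 and 0.32, and without replicate 2 of that group 0.48 and 0.58 (limma adjusted p 0.0530 and 0.244). With the replicate numbers as a block they were 0.30 and 0.22, with limma p-values before adjustment of 0.0323 and 0.190. With the number at the start of the sample identifier as a random block they were 0.39 and 0.45 (limma adjusted p 0.622 and 0.940). Over all alternatives the adjusted p ran from 0.0530 to 0.993.

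**Figure D3:**
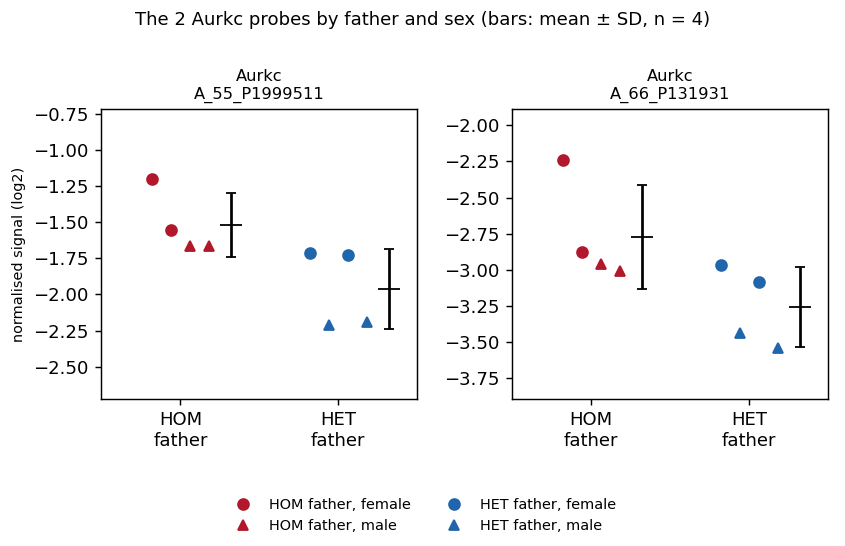
Normalised signal (log2) of the 2 *Aurkc* probes in each embryo, by father group and sex (circles female, triangles male), with the mean ± SD of each father group (n = 4). Within each father group both females lie above both males on both probes, and the differences of the sexes, 0.38 and 0.44, did not pass adjustment over all probes (limma adjusted p 0.638 and 0.892).

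No other probe of the set had a limma p below 0.05 by sex, so that 2 of 17 did before adjustment and 0 of 17 after, beside 5.22% and 0.121% of all tested probes. Of the 17 probes, 0 had all 4 females above all 4 males, beside 0.957% of all tested probes. *Aurkb* differed between the sexes by 0.02 on the log2 scale, with a 95% interval from -0.15 to 0.19, and the *Cdk1* probe A_55_P2016652 by 0.001, with an interval from -0.20 to 0.20. The 3 *Birc5* probes were each higher in females by 0.08 to 0.09, with intervals that reached from -0.03 to 0.21.

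Whether the difference by father itself differed between the sexes was tested with an interaction term. Of the 17 probes, 0 had an interaction p below 0.05 before adjustment and 0 after it (limma), beside 4.51% and 0.0639% of all tested probes. The 95% interval for the difference of the father effect, females minus males, was -0.37 to 0.39 for *Aurkb* and -0.58 to 0.22 for *Cdk1* A_55_P2016652. With 2 embryos of each sex per group these intervals are wide. The 2 males of the HOM father group also share the number at the start of their sample identifier.

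The genes around these kinases were counted in 6 lists of 79 genes in all, of which 77 were tested. At an adjusted p below 0.05 (limma), 1 gene was higher and 6 were lower with HOM fathers, and 0 reached the limits of 0.01 and 2-fold. Over all tested probes the shares were 12.3% higher, 8.69% lower and 1.24% called higher. The share of lower genes in the lists was therefore near that of the array, and the share of higher genes was below it. The median difference of the 77 genes was -0.08 on the log2 scale, compared with -0.02 over all tested probes. With quantile normalisation it was -0.02 compared with -0.03, with median scaling -0.27 compared with -0.21, and with normexp -0.07 compared with -0.03. With arrays scaled to the 75th percentile of detected probes it was -0.04 compared with 0.01. Each list gene is represented by its brightest tested probe, unlike the probes of the whole array. None differed by 2-fold, and the largest difference was that of *Pttg1* (securin, which holds separase inactive until anaphase), at 0.51 ± 0.30 (SE) with an adjusted p of 0.261.

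Of 12 cofactors of Aurora A and spindle pole genes, 0 passed the test and the median difference was -0.03. *Tpx2*, which activates Aurora A on the spindle, differed by -0.11 (limma adjusted p 0.127). *Plk1*, the kinase that acts with Aurora A at mitotic entry, differed by 0.01 (limma adjusted p 0.976). Of 16 genes for the recruitment, substrates and midzone partners of Aurora B, 0 passed and the median was -0.03. Among them *Haspin*, the kinase whose histone mark recruits the passenger complex, differed by -0.14 (limma adjusted p 0.455). *Kif20a*, the kinesin that brings the complex to the midzone, differed by -0.03 (limma adjusted p 0.775).

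In the spindle checkpoint list, 1 of 11 genes passed. *Bub3*, which docks checkpoint proteins at kinetochores, was lower, at 4.33 ± 0.02 compared with 4.54 ± 0.05 (SD, n = 4 each), a difference of -0.22 with an adjusted p of 0.0130. In the list of cyclins and regulators of Cdk1, 14 of 16 genes were tested and 1 passed. This was *Cdkn3*, a phosphatase that dephosphorylates cyclin-dependent kinases, with a difference of -0.34 and an adjusted p of 0.0476, which was 0.0820 with the number at the start of the sample identifier as a random block. *Ccnb1* and *Ccnb2*, the B-type cyclins that activate CDK1, differed by -0.08 and -0.10 (adjusted p 0.378 and 0.405), and *Ccna1* and *Ccnb3*, cyclins known mainly from germ cells, did not pass the filter on low signals.

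Of 10 genes of the anaphase promoting complex pathway and mitotic exit, 3 passed, all lower, where 8.69% of all tested probes were lower at this limit. They were *Ube2c*, the ubiquitin-conjugating enzyme of the complex (-0.25, adjusted p 0.0119), and its activators *Cdc20* (-0.20, 0.0277) and *Fzr1* (-0.19, 0.0366). Of 14 regulators of transcription at the G2/M step, 1 was higher and 1 lower. *E2f4*, a repressor of the DREAM complex, was at 0.65 ± 0.07 compared with 0.18 ± 0.09 (SD, n = 4 each), a difference of 0.47 with an adjusted p of 0.00214. *Lin37*, a subunit of the MuvB core, was at 1.33 ± 0.07 compared with 1.67 ± 0.01, a difference of -0.34 with an adjusted p of 0.00327. The values of *E2f4* and *Lin37* passed in all 19 alternatives and kept their sign in each, whereas the other 5 kept their sign but not always their call. *Ube2c* passed in 17 of 19 (not without a filter or with the replicate block, limma adjusted p 0.0742 and 0.0600) and *Bub3* in 16. *Cdc20* passed in 9 of 19, *Fzr1* in 7 and *Cdkn3* in 7, with limma adjusted p-values of up to 0.205, 0.167 and 0.143. With arrays scaled to their median, 1 gene of the lists was higher and 42 were lower, and with normexp 4 were higher and 9 lower. Of all 29717 tested probes, 2338 were higher and 10352 lower with median scaling. With normexp, 3509 of them were higher and 3407 lower.

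**Figure D4:**
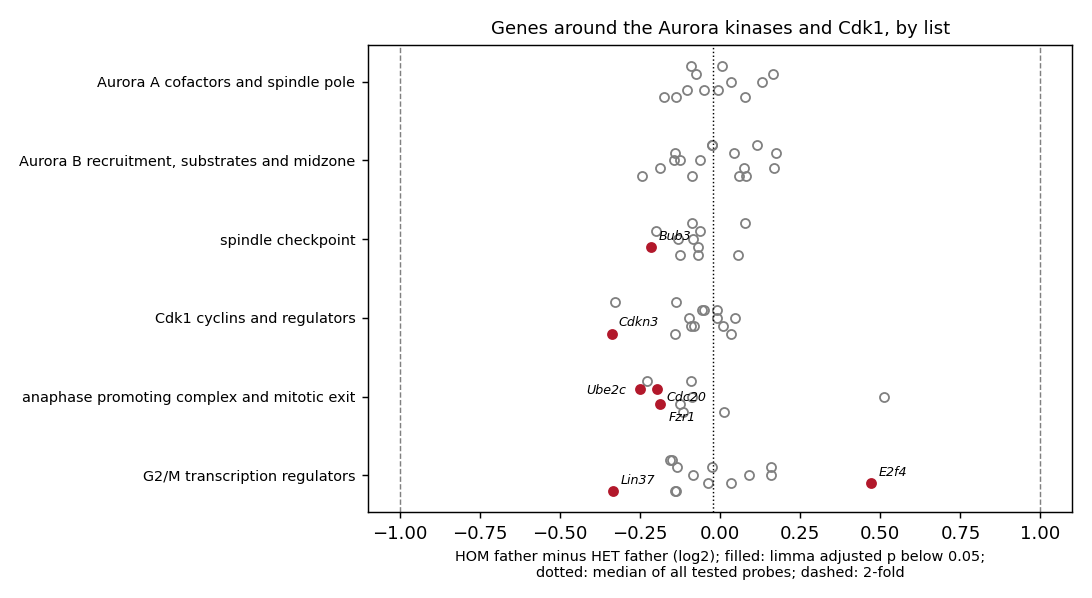
Difference in normalised signal by father (log2, HOM father minus HET father) of the 77 tested genes in the 6 lists around the Aurora kinases and Cdk1, 1 point per gene. Filled points have a limma adjusted p below 0.05, and the dotted line is the median of all tested probes (-0.02). All genes lie within 2-fold, with 1 filled point above 0 and 6 below.

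The genes whose levels were most like *Aurkb* over the 8 arrays, by Pearson correlation and as a description only, were *Pkib* (0.997), *Lctl* (0.995), *Pdcl3* (0.995), *Spata25* (0.994) and *Zfp345* (0.993). None of these is in the lists above. Their differences by father ranged from 0.41 to 1.59 on the log2 scale, all higher in embryos of HOM fathers, and the points share the same split into father groups and slides. For the *Cdk1* probe A_55_P2048588 the most alike were *Prr29* (0.993), *1700020L24Rik* (0.991), *Aldh3b3* (0.990), *Syne3* (0.984) and *Tmem209* (0.983).

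In whole embryos, more cells of a type and more RNA per cell cannot be told apart. Between 51.9% and 60.8% of spots were well above background on each array. The label of whole embryo was met by the markers of embryo proper, of which 12 of 12 were tested, with a summed level (in multiples of the 75th percentile) of 42.7 to 48.3 in the HOM father group and 45.4 to 51.5 in the HET father group. Of 12 germ cell and meiosis markers 8 were tested, *Dazl* and *Tex101* were not detected, and 1 (*Nanos3*, 0.43, limma adjusted p 0.00177) was higher in embryos of HOM fathers, with sums of 6.78 to 9.73 compared with 6.19 to 8.61. The other tested germ cell and meiosis markers differed by 0.69 (*Stra8*), 0.43 (*Ddx4*), 0.24 (*Tfap2c*), 0.15 (*Prdm1*), 0.02 (*Sycp3*), -0.14 (*Rec8*) and -0.48 (*Sycp1*). Their limma adjusted p-values were 0.134 or more. *Rec8* was the brightest in these sums (means 1.55 and 1.69), whereas *Sycp1*, *Sycp3* and *Stra8* had means of -5.42 to -3.29 and add little. This list bears on *Aurkc*, and its part in the *Aurkc* values was not tested. Sums of the 8 primitive erythroid markers were 689 to 857 compared with 848 to 890, and of the 8 yolk sac markers 461 to 576 compared with 525 to 558. Sums of the decidua markers, 7 of 8 tested, were 23.3 to 47.7 compared with 21.1 to 25.8, and of the trophoblast markers, 6 of 8 tested, 17.0 to 27.2 compared with 22.6 to 34.8. Among the decidua markers, *Il15ra* was at 3.61 to 4.04 with HOM fathers and at 3.18 to 3.43 with HET fathers (limma adjusted p 0.0148). Its groups did not overlap. *Prl8a2* ranged from 0.29 to 4.45 and from -3.99 to 1.88 (limma adjusted p 0.215). The other tested decidua markers differed by -0.23 (*Hand2* and *Bmp2*), 0.01 (*Cryab*), 0.02 (*Des*) and 0.04 (*Ptgs2*) on the log2 scale. The trophoblast hormone *Prl3b1* was higher by 1.28 with HOM fathers (limma adjusted p 0.000415), and *Gcm1* was lower by 1.07 (0.0217). The other tested trophoblast markers differed by 1.88 (*Prl3d1*), 0.61 (*Ascl2*), -0.12 (*Hand1*) and -0.18 (*Elf5*), with limma adjusted p-values of 0.208 or more. The median difference of the tested trophoblast markers was 0.24, opposite in direction to their sums. These sums weigh most the brightest markers, *Gcm1* (means 3.03 and 4.10) and *Hand1* (3.12 and 3.24). The part of these markers in the results by father was not tested.

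**Figure D5:**
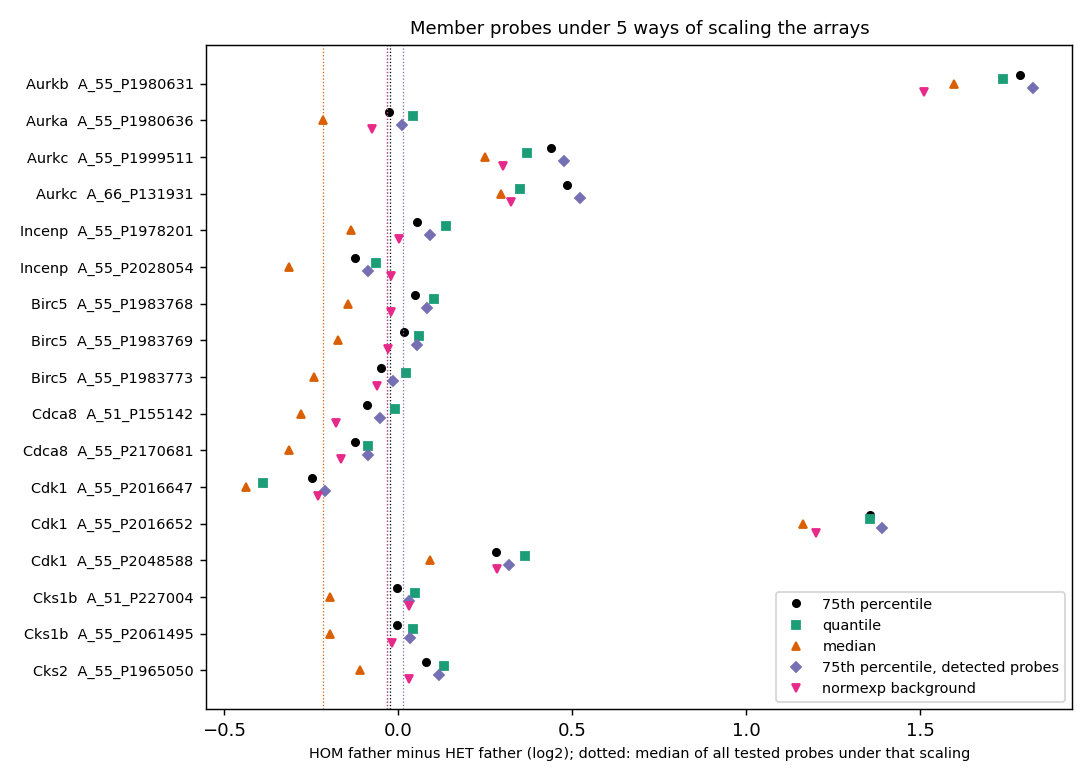
Difference by father (log2, HOM father minus HET father, n = 4 each) of the 17 probes under 5 ways of scaling the arrays, with the median of all tested probes under each as a dotted line. *Aurkb* stays between 1.51 and 1.83 and *Cdk1* A_55_P2016652 between 1.16 and 1.39. Scaling to the array median moves the median of all probes to -0.21 and moves every probe, *Aurkb* and *Cdk1* included, by the same amount.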

How the data were processed

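Whole-embryo RNA was labelled with Cy3 and hybridised to Agilent SurePrint G3 Mouse GE arrays. The authors quantified each array with Agilent Feature Extraction version 11.0.1.1 and deposited linear spot intensity, with background subtracted and no normalisation between arrays. Their series-wide table matched it within 0.5%. Deposited spot flags (other values, 0 or 1) mark outliers and signals well above background.

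Each array held 59305 non-control spots, 0 of them saturated, and 123 to 246 outlier spots were dropped. Each array's 75th percentile was subtracted from its log2 processed intensity, and spots of 1 probe were averaged. Probes of the 9 genes were kept apart. The filter required a signal well above background and not below the array's 20th percentile on at least 4 of 8 arrays. Two-sided limma models (version 3.58.1, R 4.3.3, eBayes, Benjamini-Hochberg adjustment over all tested probes) were fitted by father without a covariate, by sex with father as a covariate, and by their interaction. Fits were tested on simulated data. The number of arrays limits the precision.

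Members and lists were chosen with earlier results of these data known. Each list gene was represented by its tested probe with the highest mean, and up to 3 genes per list with an adjusted p below 0.05 were named by rule. Other genes were named after their values were seen. The 5 genes most like *Aurkb* and the brightest *Cdk1* probe were taken by Pearson correlation. Alternatives were 4 other scalings or background corrections, the authors' table, other filters, variance models and blocks, and leaving out each embryo. Normexp used the median spot signal, since the tables used here hold no mean signal. Replicates were separate embryos.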

Additional observations from a re-analysis of the deposited data

Results flagged for a closer look

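Among 34 sets of 4 arrays (17 probes in each father group), 4 held an embryo whose gap to the nearest other embryo took up more of the range of its group than Dixon's 95% limit allows. Chance gives about 1 such set in 20, or 1.7 of 34. On *Aurkc* A_66_P131931, replicate 1 of the HOM father group was at -2.24, with the other 3 embryos between -3.01 and -2.88. On *Cdca8* A_51_P155142, replicate 3 of the HET father group was at 5.50, with the others at 5.42. On *Cks1b* A_51_P227004, replicate 3 of the HOM father group was at 5.74, with the others between 5.80 and 5.82. On *Cks1b* A_55_P2061495, replicate 4 of the HET father group was at 5.74, with the others between 5.58 and 5.59.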

How the results depend on the processing

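The number of probes called by father was 2 under all 19 alternatives, which is no sign of stability since the genes were chosen on this contrast. The counts of 0 by sex and by interaction held under all 18 alternatives run for them. At an adjusted p below 0.05 the number of the 17 probes that differed by father was 3, and it was 7 with median scaling, 5 with normexp, 5 with sex as a covariate, but 2 without a filter and 2 with the replicate block. *Cdk1* A_55_P2048588 was not among them with median scaling, without a filter or with the replicate block. For the lists, 7 genes passed, compared with 3 with quantile normalisation, 43 with median scaling (1 higher and 42 lower), 13 with normexp (4 higher and 9 lower), 2 without a filter, 13 with an intensity trend and robust variances, and 4 to 9 when an embryo was left out. It was 4 without replicate 1 or 4 of the HOM father group and 4 without replicate 3 or 4 of the HET father group. Median scaling moved the median of all tested probes from -0.02 to -0.21, and relative to that median *Aurkb* differed by 1.81. Of all tested probes, 2338 were higher and 10352 lower with median scaling at an adjusted p below 0.05. The counts with normexp were 3509 higher and 3407 lower. With normexp, 145 probes of the whole array were called in place of 376. With the replicate block the lists had 2 genes and the array 232. Deviations of same-numbered embryos correlated at -0.13 to 0.19, and those of embryos with unlike numbers at -0.19 to 0.21. So few pairs cannot show whether the numbers pair the embryos. The causes of these changes were not tested.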
